A study of Mus musculus with 8 samples.

Results

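Expression of 10 tight junction genes was examined in mouse jejunal mucosa: the claudins Cldn2, Cldn3, Cldn4, Cldn7, Cldn8, Cldn15 and Cldn23, the scaffold gene Tjp1, and the membrane protein genes Ocln and F11r. They were chosen by symbol, and each matched 1 of the 56980 Ensembl gene identifiers in the count files, so that all 10 members were found. RNA sequencing compared 4 floxed controls (FFA2 fl/fl) with 4 Adipoq-F2-KO mice, all male. In the Adipoq-F2-KO mice the short-chain fatty acid receptor FFA2, encoded by Ffar2, was removed by a Cre recombinase under the adiponectin promoter, which is active in adipocytes, so the jejunal cells studied here were not the cells targeted. All 8 mice carried the floxed allele and differed in the Cre transgene, and no group with Cre alone was analysed here. Both genotypes were given a Western diet containing 10% fructooligosaccharides, a fermentable fiber, from 12 weeks of age for 2 weeks in thermoneutral housing. The tissue was a mucosal scraping of mixed cell type, in which fewer cells of a type and less RNA per cell cannot be told apart.

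Tight junctions seal neighbouring epithelial cells near the apical surface and set which ions and molecules pass between them. Claudins span the membrane and form the strands: claudin-2 and claudin-15 are known for cation-permeable channels, claudin-2 mainly in crypts, whereas claudin-3 and claudin-4 are generally regarded as sealing. Occludin (Ocln) and junctional adhesion molecule A (F11r) are further membrane proteins of the junction, and ZO-1 (Tjp1) is the cytoplasmic scaffold that binds claudin tails through PDZ domains and links them to actin.

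The 8 libraries held between 6007654 and 21712776 counts. The 3 with fewer than 10000000 counts were floxed library 3 and Adipoq-F2-KO libraries 3 and 4. The 5 deeper libraries were thus floxed libraries 1, 2 and 4 and only Adipoq-F2-KO libraries 1 and 2. Ffar2 itself was near the limit of detection, with 2 to 18 raw counts per floxed library and 3 to 13 per Adipoq-F2-KO library, and does not check a deletion made in adipocytes. All 10 epithelial and all 12 villus enterocyte markers were detected, with summed normalized counts (counts divided by the library's DESeq2 size factor) of 66432 to 80899 against 70266 to 83992 for epithelium in floxed and Adipoq-F2-KO libraries, while the colonic gene Car1 and the pancreatic gene Prss1 had 0 counts in every library. The ileal bile acid binding protein gene Fabp6 stood at 522.8 normalized counts in floxed library 3 and at 140.1 and 941.9 in Adipoq-F2-KO libraries 3 and 4, but at 3.95 or less in the other 5 libraries. Thus the 3 libraries with low totals also carried a distal small intestinal transcript, and each tested member's fold change without them is given below. Smooth muscle markers also varied, from 3768 summed normalized counts in floxed library 1 to 30426 in floxed library 3. Mylk made up 3498.5 and 9192.8 of these sums, while Myh11 went from 64.8 to 9682.1 between the same libraries. The smooth muscle marker score, the mean over genes of centred log2 normalized counts, was -2.36 and 3.06 in them.

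The sequences shared by the claudins are shown first, because they define the family and show how far its members could be told apart by reads. Each line is the coding strand, 5′ to 3′, of the stretch in the first extracellular loop that holds the claudin signature. Capitals mark the leucine and tryptophan codons at its start and the codons of both conserved cysteines.
Cldn2: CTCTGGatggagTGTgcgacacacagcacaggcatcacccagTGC
Cldn15: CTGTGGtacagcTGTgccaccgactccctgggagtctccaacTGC
Cldn3: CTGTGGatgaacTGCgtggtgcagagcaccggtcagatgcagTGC
Cldn4: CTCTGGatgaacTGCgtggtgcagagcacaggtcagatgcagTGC
Cldn7: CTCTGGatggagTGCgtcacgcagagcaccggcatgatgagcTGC
Cldn8: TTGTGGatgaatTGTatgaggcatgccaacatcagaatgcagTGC
Cldn23: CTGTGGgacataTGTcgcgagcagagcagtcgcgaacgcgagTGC

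In GRCm38 with GENCODE M21 annotation, the Cldn2 stretch lies on the plus strand at chrX:139808855-139808899 in exon 2 of 2, and that of Cldn15 on the plus strand at chr5:136968248-136968292 in exon 1 of 5. The Cldn3 stretch (plus strand, chr5:134986589-134986633) and the Cldn4 stretch (minus strand, chr5:134946554-134946598) each lie in a gene of 1 exon. The Cldn7 stretch is at chr11:69966074-69966118 on the plus strand, in exon 1 of 4. Those of Cldn8 (minus strand, chr16:88562844-88562888) and Cldn23 (minus strand, chr8:35826144-35826188) are again in single-exon coding sequences. Both conserved cysteines were separated by 9 residues in all 7 claudins.

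Cldn3 and Cldn4, which lie on opposite strands of chromosome 5, were the most alike pair of the 7, with 43 of 45 bases identical in this stretch, 73.0% of coding bases and 68.9% of residues. The channel-forming pair Cldn2 and Cldn15 shared 25 of 45 bases and 32.7% of residues. Even Cldn3 and Cldn4 shared no stretch of 75 bases, the read length, in their transcripts. The same held for every member against all other annotated genes except F11r, in which 4 of 2662 such stretches also occur in Pacs2. Exons of Cldn3 overlap those of the antisense gene Wbscr25 over 40 bp, and Wbscr25 had 58 counts in the 8 libraries together.

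The last 15 bases of each coding sequence, stop codon included, are shown because the claudin tail is the part bound by the Tjp1 product. Capitals mark terminal tyrosine and valine codons.
Cldn2: actgggTATGTGtga
Cldn15: aacgcaTACGTGtag
Cldn3: aaggacTACGTCtga
Cldn4: agcaacTATGTGtaa
Cldn7: aaggaaTACGTGtga
Cldn8: agtcagTATGTGtag
Cldn23: gactccgacctgtag
They lie at chrX:139809386-139809400 (Cldn2, plus strand), chr5:136974902-136974916 (Cldn15, plus), chr5:134987090-134987104 (Cldn3, plus), chr5:134946113-134946127 (Cldn4, minus), chr11:69967703-69967717 (Cldn7, plus), chr16:88562358-88562372 (Cldn8, minus) and chr8:35825442-35825456 (Cldn23, minus), in the last coding exon of each gene. All but that of Cldn23 ended in tyrosine and valine. Cldn23 also had the longest coding sequence of the 7, with 296 residues against 210 to 230 in the others.

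The jejunal claudin pool consisted mainly of Cldn7, Cldn15 and Cldn3. Levels of different genes were compared as TPM, that is, counts per exon length scaled to the same total in each library. By this level Cldn7 was highest (766 ± 65.9 in floxed controls and 886 ± 138 in Adipoq-F2-KO mice, SD, n = 4 each), followed by Cldn15 (579 ± 93.5 and 561 ± 111) and Cldn3 (445 ± 48.4 and 472 ± 47.0). F11r was next, at 279 ± 23.2 and 291 ± 31.0 TPM. Cldn7 was above Cldn15 in 8 of 8 libraries, Cldn3 above F11r and F11r above Cldn4 likewise, and Cldn15 above Cldn3 in 7 of 8.

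Below these stood Cldn4, Tjp1 and Ocln. Cldn4 was at 151 ± 45.2 TPM in floxed controls and 129 ± 50.7 in Adipoq-F2-KO mice, Tjp1 at 110 ± 13.9 and 115 ± 13.4, and Ocln at 84.4 ± 13.1 and 101 ± 17.8. Cldn4 and Tjp1 did not differ in order beyond their spread, since Cldn4 was the higher in only 5 of 8 libraries and their log2 ratio was 0.25 ± 0.44 (SD over 8 libraries). Cldn23, at 37.0 ± 7.58 and 35.1 ± 11, was above Cldn2 in 7 of 8 libraries. Cldn2 was at 18.0 ± 15.8 and 13.4 ± 3.39, and Cldn8 was last with a mean of 0.227 over the 8 libraries. The order of the 10 genes was the same when the longest transcript replaced the exon union and when any single library was left out.

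**Figure D1:**
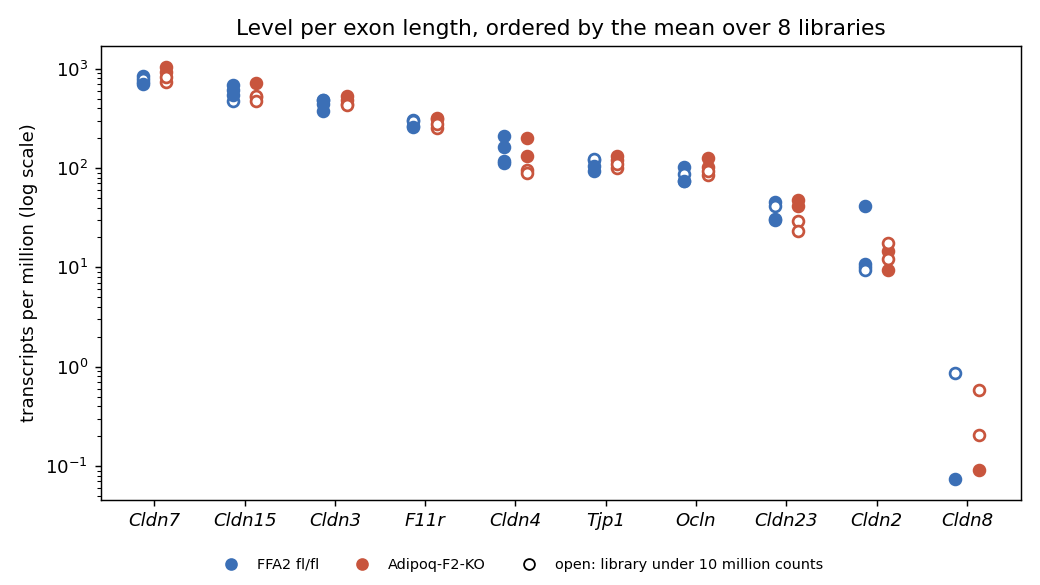
TPM, level per exon length (log scale), of the 10 tight junction genes in each of 8 libraries, ordered by their mean; blue points are FFA2 fl/fl, red points Adipoq-F2-KO, and open points libraries under 10000000 counts, with 0 values of Cldn8 not drawn. Cldn7 lies above Cldn15 in 8 of 8 libraries, and the point of floxed library 4 is the only one in which Cldn2 exceeds Cldn23.

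Taking 24 annotated claudins together, Cldn7, Cldn15 and Cldn3 made up 88.4% ± 1.23 of the summed level per length in floxed controls and 90.4% ± 2.15 in Adipoq-F2-KO mice (SD, n = 4). Cldn7 alone accounted for 37.9% ± 2.05 and 41.7% ± 1.99, and Cldn4 for 7.36% ± 1.67 and 6.01% ± 1.99. Cldn12, the only claudin outside the members with enough counts to be tested, accounted for 1.27% and 1.17%. Endothelial claudin-5 (Cldn5) reached at most 0.0108% in any library. These shares describe RNA and were not tested between genotypes.

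No member passed the genotype test across all genes. Of the 9 members that reached 10 counts in 4 or more libraries, 5 had a higher and 4 a lower estimate in Adipoq-F2-KO mice, with a median log2 fold change of 0.07 against -0.01 over all 15986 genes tested. By DESeq2 with Benjamini-Hochberg adjustment 0 of 9 had an adjusted p below 0.05, where 0.0375% of all genes did, and adjusted p was 0.9998 for each of the 9. At an unadjusted p below 0.05 there was 1 (Cldn7), against 3.03% of all genes, while edgeR's quasi-likelihood test gave 0 members and limma-voom 1 at this threshold, and 0 each after adjustment. In 0 of 9 members did the 4 libraries of one genotype lie wholly apart from the other 4, as they did in 2.12% of all genes. The estimated fold change was within 1.3-fold for 8 of the 9 members and for 13618 of all 15986 genes, Cldn2 being the exception.

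**Figure D2:**
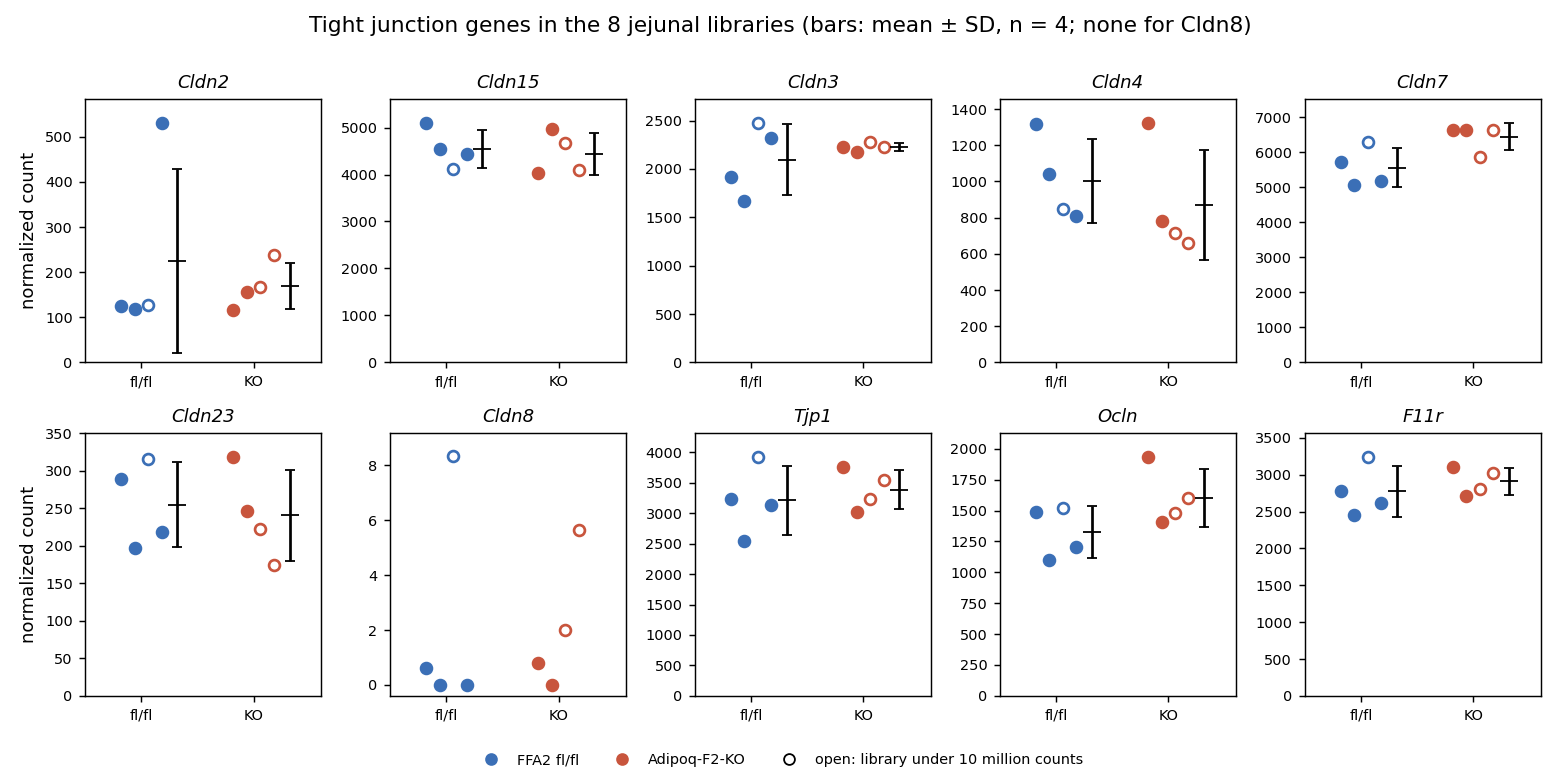
Normalized counts (y axes, linear) of each of the 10 genes in the 4 FFA2 fl/fl (blue) and 4 Adipoq-F2-KO (red) libraries, with the mean and SD in black except for Cldn8; open points are libraries under 10000000 counts. The genotypes overlap in every panel, and Cldn2 in floxed library 4, at 530.1, stands apart from the other 7 libraries at 115.3 to 236.9.

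Among the channel-forming claudins, Cldn2 was the most variable member and Cldn15 the least. Normalized counts of Cldn2 were 125.4, 117.5, 127.6 and 530.1 in floxed libraries 1 to 4 and 115.3, 156.2, 166.2 and 236.9 in Adipoq-F2-KO libraries 1 to 4. Floxed library 4 was higher than all other libraries, and without it the 3 remaining floxed values lay close together, above Adipoq-F2-KO library 1 and below the other 3. The SD of log2 Cldn2 over the 8 libraries was 0.743, larger than in 90.9% of tested genes. The log2 fold change was -0.42 (SE 0.59, 95% interval -1.59 to 0.74, unadjusted p = 0.478 by DESeq2), so that neither a fall to 0.333 of the control level nor a 1.67-fold rise lay outside the interval. It rested on that library, since leaving it out turned the estimate to 0.44 (DESeq2, unadjusted p = 0.0873). In the 5 libraries of at least 10000000 counts, which include floxed library 4, it was -0.93 (DESeq2, unadjusted p = 0.309), and by limma-voom over all 8 it was -0.22.

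Crypt and Paneth cell markers are given beside Cldn2 because crypts are its known site. A list of 12 crypt genes, among them the stem cell genes Lgr5 and Olfm4, summed to 2890.5 normalized counts in floxed library 4 and to 3326 to 4296 in the other 7 libraries. Floxed library 4 was the lowest library for 7 of the 12, including Lgr5 and Olfm4, but not for the other 5, which include Ephb2 (396.2), Axin2 (477.5) and Cd44 (155.6). Paneth cell markers, which sit at the crypt base, summed to 4465 there and to 7178 to 14302 elsewhere, and floxed library 4 was lowest for 6 of 6. Low values there were not confined to crypt and Paneth markers: leukocyte markers summed to 1761 in floxed library 4 and to 1897 to 4026 elsewhere, with 5 of 8 genes lowest in it. Smooth muscle markers summed to 4283 in floxed library 4, of which Mylk made up 3980.2. The smooth muscle marker score was -2.32 there, between floxed library 1 (-2.36) and Adipoq-F2-KO library 1 (-1.57), and higher in the other libraries. Fabp6 was at 0.774 normalized counts in floxed library 4. With the smooth muscle marker score as a covariate the Cldn2 log2 fold change was -0.18 (DESeq2, unadjusted p = 0.763). The part of crypt content, tissue position or depth in the Cldn2 value of floxed library 4 was not tested.

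**Figure D3:**
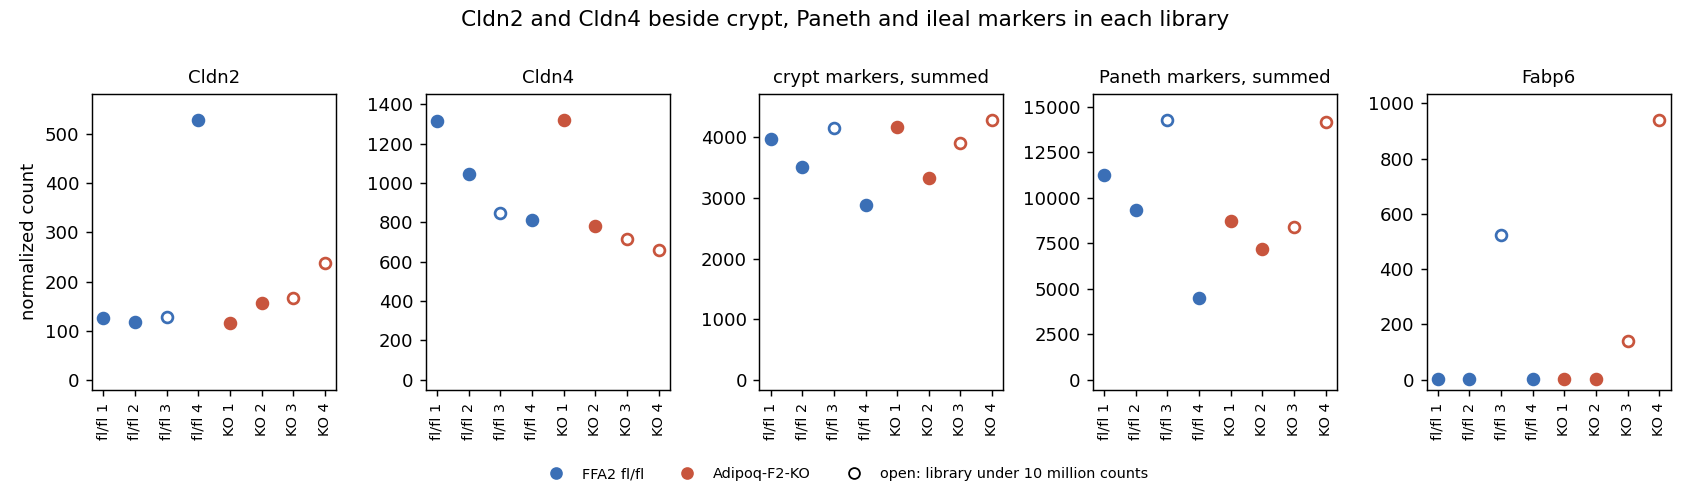
Normalized counts (linear y axes) in each of the 8 libraries of Cldn2, Cldn4, the summed crypt markers, the summed Paneth markers and the ileal gene Fabp6; blue is FFA2 fl/fl, red Adipoq-F2-KO, and open points are libraries under 10000000 counts. Floxed library 4 is highest for Cldn2 (530.1) and lowest for crypt (2890.5) and Paneth (4465) markers, while Fabp6 is above 100 only in the 3 open points.

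Cldn15, the other channel former, had 5094, 4540.3, 4118 and 4429.8 normalized counts in floxed libraries and 4036, 4972, 4663 and 4091 in Adipoq-F2-KO libraries. The groups overlapped throughout, with Adipoq-F2-KO libraries 1 and 4 lowest. Its SD of log2 values was 0.128, smaller than in most genes (only 11.5% of tested genes had a smaller one), and its log2 fold change was -0.03 (SE 0.11, 95% interval -0.25 to 0.18), and -0.06 in the 5 deeper libraries. The ratio of Cldn2 to Cldn15 normalized counts was 0.0246 to 0.031 in floxed libraries 1 to 3 and 0.12 in floxed library 4, against 0.0286 to 0.0579 in the Adipoq-F2-KO libraries.

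Of the claudins regarded as sealing, Cldn3 and Cldn4 varied separately despite their similar sequences. Cldn3 was at 1920.4, 1674, 2474 and 2322.5 normalized counts in floxed libraries and at 2228.5, 2174, 2282 and 2228 in Adipoq-F2-KO libraries. The Adipoq-F2-KO values lay inside the floxed range, and their SD was 44.4 against 366.5 in the controls, a difference in spread that was not tested. Its log2 fold change was 0.09 (SE 0.13, 95% interval -0.17 to 0.35), and 0.15 in the 5 deeper libraries (DESeq2, unadjusted p = 0.361).

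Cldn4 was at 1316, 1043, 847 and 809.5 normalized counts in floxed libraries and 1322, 779.9, 717 and 659.9 in Adipoq-F2-KO libraries. Of the 4 Adipoq-F2-KO libraries 3 were below every control and 1, Adipoq-F2-KO library 1, was above every control. The log2 fold change was -0.21 (SE 0.24, 95% interval -0.68 to 0.27, unadjusted p = 0.392 by DESeq2). Without Adipoq-F2-KO library 1, the library above every control, it was -0.48 (DESeq2, unadjusted p = 0.0132, adjusted p not below 0.05). In the 5 libraries of at least 10000000 counts it was -0.01 (DESeq2, unadjusted p = 0.965). Both lowest values came from Adipoq-F2-KO libraries 3 and 4, which also carried Fabp6, and the part of depth or tissue position was not tested. The ratio of Cldn3 to Cldn4 normalized counts ran from 1.46 to 2.92 in floxed libraries and from 1.69 to 3.38 in Adipoq-F2-KO libraries.

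Cldn7, a claudin found along lateral as well as junctional membranes, was the member with the smallest p. It had 5725.5, 5051, 6278 and 5181 normalized counts in floxed libraries and 6639.7, 6631, 5870.2 and 6640.2 in Adipoq-F2-KO libraries. Adipoq-F2-KO libraries 1, 2 and 4 exceeded every control, while library 3 lay below floxed library 3. The log2 fold change was 0.22 (SE 0.10, 95% interval 0.02 to 0.41, unadjusted p = 0.0326 and adjusted p = 0.9998 by DESeq2), and it lay between 0.17 and 0.31 under 16 other settings, of which 6 gave an unadjusted p below 0.05. In the 5 deeper libraries, with only Adipoq-F2-KO libraries 1 and 2, it was 0.31 (DESeq2, unadjusted p = 0.00404, adjusted p = 0.225). In that fit 78 of all tested genes had an adjusted p below 0.05.

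Cldn23 had 289.6, 197, 316 and 218 normalized counts in floxed libraries and 319, 246, 222 and 175 in Adipoq-F2-KO libraries, with a log2 fold change of -0.06 (SE 0.22, 95% interval -0.50 to 0.38). The highest and the lowest library were both Adipoq-F2-KO. In the 5 deeper libraries the estimate was 0.26 (DESeq2, unadjusted p = 0.28). Cldn8 had raw counts of 1, 0, 4 and 0 in floxed libraries and 1, 0, 1 and 3 in Adipoq-F2-KO libraries. Only floxed library 3 exceeded the floor of 3 counts, so a difference in Cldn8 was not detectable at this depth.

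Ocln, Tjp1 and F11r had estimates above 0. Ocln (chr13:100496507-100552718, minus strand) was at 1486, 1096, 1518 and 1207 normalized counts in floxed libraries and at 1936, 1405, 1482 and 1598 in Adipoq-F2-KO libraries. Adipoq-F2-KO libraries 1 and 4 exceeded every control and floxed library 2 was lowest. The log2 fold change of 0.28 (SE 0.15, 95% interval -0.02 to 0.58, unadjusted p = 0.0686 by DESeq2) was the largest positive estimate of the 9, and stayed between 0.18 and 0.40 under the other settings, the highest being that of the 5 deeper libraries (DESeq2, unadjusted p = 0.0505). Of these 16 settings 4 gave an unadjusted p below 0.05 for Ocln.

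Tjp1, the scaffold gene (chr7:65296165-65527781, minus strand), had 3231, 2543, 3929 and 3138 normalized counts in floxed libraries and 3758, 3017.5, 3239 and 3538 in Adipoq-F2-KO libraries. F11r (chr1:171437535-171464603, plus strand) had 2781, 2454, 3245.5 and 2615 in floxed libraries and 3101, 2709, 2801 and 3025 in Adipoq-F2-KO libraries. For both genes floxed library 3 was highest and floxed library 2 lowest, so the Adipoq-F2-KO values lay inside the control range. Log2 fold changes were 0.08 (SE 0.14, 95% interval -0.20 to 0.36) for Tjp1 and 0.07 (SE 0.11, 95% interval -0.15 to 0.29) for F11r. Those intervals correspond to changes between 0.868-fold and 1.29-fold, and between 0.902-fold and 1.22-fold. In the 5 deeper libraries the log2 fold changes were 0.19 for Tjp1 (DESeq2, unadjusted p = 0.274) and 0.15 for F11r (DESeq2, unadjusted p = 0.246).

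Tjp1 and F11r followed each other across animals. Over the 8 libraries their log2 normalized counts had Pearson's r = 0.967 (exact permutation p = 0.000174, Benjamini-Hochberg adjusted over 36 pairs 0.00625) and Spearman's rho = 0.976 (exact permutation p = 0.000397, adjusted 0.0143). Without the 2 libraries farthest from the Tjp1 median r was 0.939, and in the 5 deeper libraries it was 0.952. This was the only pair of the 36 whose adjusted p was below 0.05 by both measures. Ocln with F11r (r = 0.839, exact permutation p adjusted over 36 pairs 0.119) and Cldn7 with Ocln (r = 0.83, adjusted 0.119) came next. Because a pair in the same libraries shares scaling and tissue content, these values describe joint variation only.

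Cldn2 and Cldn4 went in opposite order across libraries, with Spearman's rho = -0.833 (exact permutation p = 0.0154, adjusted over 36 pairs 0.138) and Pearson's r = -0.526 (exact permutation p = 0.167, adjusted 0.425). After adjustment this pair did not pass. Cldn15 had negative r with F11r (-0.61) and Tjp1 (-0.591), each with an adjusted p of 0.396 by exact permutation.

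**Figure D4:**
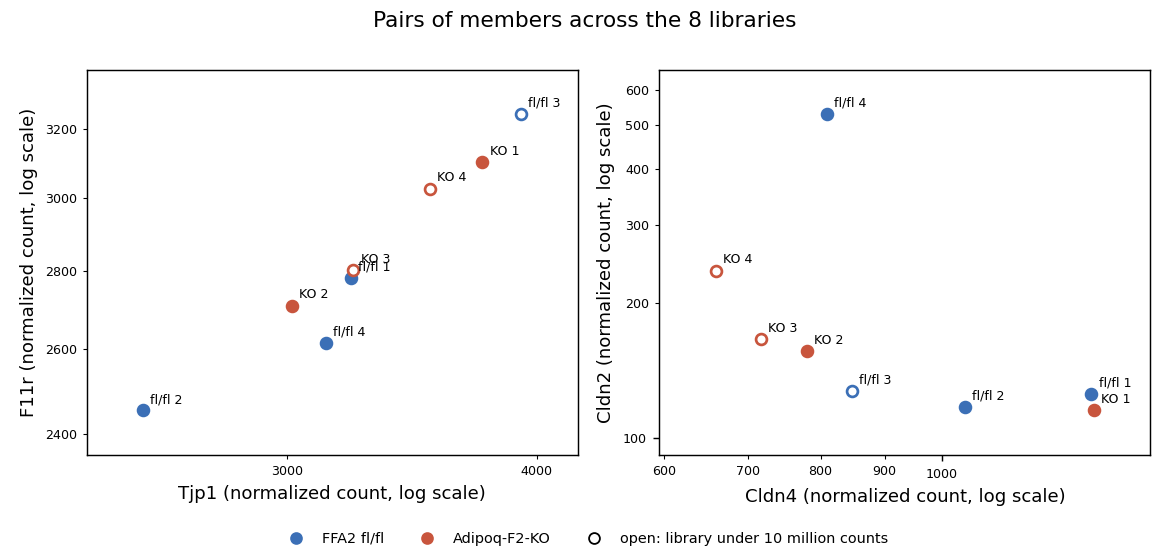
Normalized counts (log scales) of F11r against Tjp1 and of Cldn2 against Cldn4 in the 8 labelled libraries; blue is FFA2 fl/fl, red Adipoq-F2-KO, and open points are libraries under 10000000 counts. The Tjp1 and F11r points rise together (r = 0.967), and in the second panel floxed library 4 lies above the descending order of the others.

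Among 10225 genes outside the members with a mean normalized count of at least 50, those most like Cldn2 over the 8 libraries were Mbtps1, which encodes the site-1 protease (r = 0.968), Sipa1l1 (r = 0.965) and Rbmx (r = 0.962). All 3 were highest in floxed library 4. Cldn4 was most like Gm37274 (r = 0.988), Rapgef2 (r = 0.978) and Trim38 (r = 0.96), Cldn7 most like Tmem236 (r = 0.961), Dleu2 (r = 0.957) and Tle4 (r = 0.948), and Cldn15 most like Inafm1 (r = 0.971), Vars2 (r = 0.966) and Dtx2 (r = 0.942). These are the highest of 10225 correlations over n = 8 libraries that share depth and tissue content, and are given as a description.

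The comparison was extended to the other junction genes. Of 69 matched genes in 4 lists (other claudins, other tight junction, adherens junction and desmosome genes) 50 were tested, with 30 higher and 20 lower estimates and a median log2 fold change of 0.04. By DESeq2 0 of 50 had an adjusted p below 0.05, 1 had an unadjusted p below 0.05 (3.03% of all genes did), and 48 were within 1.3-fold. Tight junction genes outside the members numbered 29 tested, 16 with higher and 13 with lower estimates (median 0.01). Adherens junction genes, which include E-cadherin (Cdh1), had 9 higher and 3 lower estimates of 12 (median 0.06), and desmosome genes 5 and 3 of 8 (median 0.06), with 0 at an unadjusted p below 0.05 by DESeq2 in each.

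Amot, encoding the junction-associated scaffold angiomotin, was the 1 gene of the 50 with an unadjusted p below 0.05. It was at 320.5, 295, 297 and 279 normalized counts in floxed libraries and at 401, 370.1, 340.4 and 378 in Adipoq-F2-KO libraries, so every Adipoq-F2-KO library was above every control. In 2.12% of all genes the genotypes likewise did not overlap, in either direction. Its log2 fold change was 0.33 (SE 0.11, 95% interval 0.10 to 0.55, unadjusted p = 0.00435 and adjusted p = 0.9932 by DESeq2). Cldn12 was at -0.04 (SE 0.13).

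**Figure D5:**
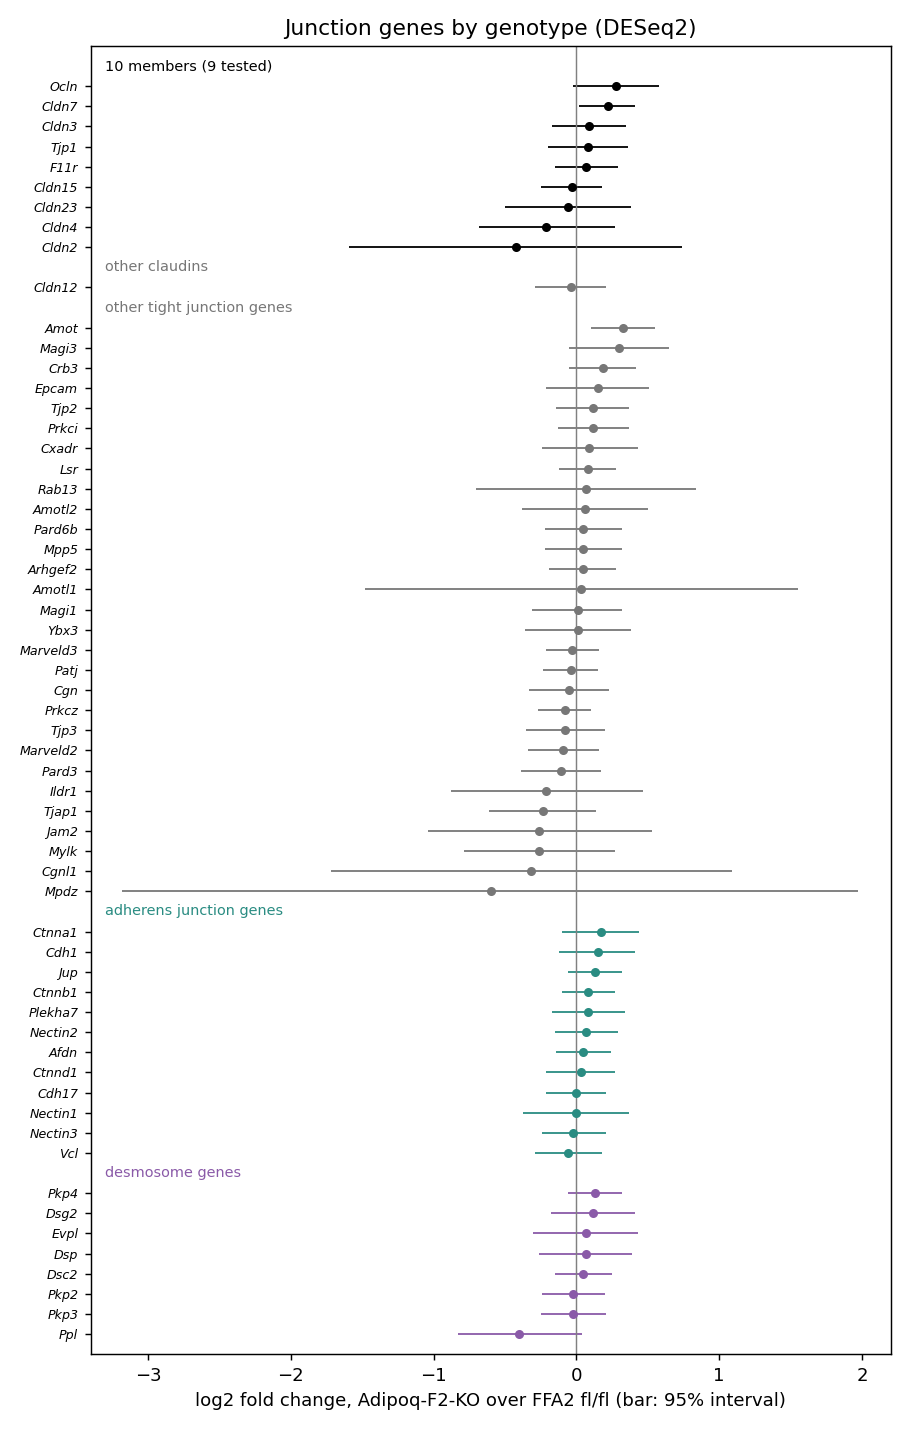
Log2 fold change of Adipoq-F2-KO over FFA2 fl/fl (x axis, points) with 95% intervals (bars, uncorrected for the number of genes) for the 9 tested members and 50 other junction genes from DESeq2, grouped by list. The intervals of Cldn7 (0.02 to 0.41) and Amot (0.10 to 0.55) exclude 0, and that of Cldn2 is the widest among the members.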

How the data were processed

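The deposited values are raw read counts per Ensembl gene, 1 file per library, for 4 FFA2 fl/fl and 4 Adipoq-F2-KO jejunal mucosa libraries (stranded poly-A libraries, single-end 75-base reads). Per the labels and the study's methods, the authors used Trimmomatic, STAR and featureCounts, and the submitters' processing notes name GRCm38. Versions, annotation release and strand setting are not given in the sources used here. Symbols, lengths, coordinates and coding sequences came from GENCODE M21, which held 52125 of 56980 identifiers, and the others carried 0.71% of counts.

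The 15986 genes that reached 10 counts in 4 or more libraries were tested with DESeq2 1.42.0 (R 4.3.3, genotype only, two-sided Wald tests, Benjamini-Hochberg adjustment), checked on simulated counts. Adjusted p was missing for 8 genes. Intervals are the estimate ± 1.96 SE. edgeR 4.0.16, limma 3.58.1, other scalings, filters, covariates and left-out libraries were alternatives. Correlations used log2(normalized count + 1). Sequences were aligned with Biopython 1.88. Floors cover counting error only.

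The members and lists were chosen with earlier results of these data known. All members were named, plus up to 3 genes per junction list with the smallest unadjusted p below 0.05, the 3 genes most like Cldn2, Cldn4, Cldn7 and Cldn15 by Pearson's r, and marker genes that check the tissue. Cldn25, Igsf5 and Muc6 were not matched to a single identifier. Libraries of 1 genotype were not duplicates (chi-square of 5.8 to 57.8 per gene over 12 pairs). The labels give each library as a separate sample of mice.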

Additional observations from a re-analysis of the deposited data

Results flagged for a closer look

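In 2 of 20 groups of 4 libraries examined by Dixon's ratio, a library stood apart from its group beyond the 95% critical value, where chance flags about 1 in 20. Cldn2 in floxed library 4, at 530.1 normalized counts, had a gap to its nearest neighbour of 0.976 of the group's range. Cldn7 in Adipoq-F2-KO library 3, at 5870.2 normalized counts against 6631 to 6640.2 in the other 3, had a ratio of 0.989. Leaving out that Cldn7 library gave a log2 fold change of 0.26 (DESeq2, unadjusted p = 0.0185).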

How the results depend on the processing

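Across 16 alternatives 0 members had an adjusted p below 0.05 (lowest 0.179), and 133 of 144 member fold changes kept their sign. Members at an unadjusted p below 0.05 numbered 1, and 0 with epithelium size factors, edgeR, the smooth muscle covariate or, among left-out libraries, a range of 0 to 2. A count of 1 was not always Cldn7: it was Ocln with the replicate block (DESeq2, unadjusted p = 0.0215), when floxed library 1 (0.0399) or Adipoq-F2-KO library 2 (0.0389) was left out, and Cldn4 when Adipoq-F2-KO library 1 was (0.0132). Other junction genes at that threshold numbered 1, and 0 with epithelium size factors, 3 with the replicate block, 3 in the 5 deeper libraries and 1 to 7 with a library left out. For all genes the share at that unadjusted threshold was computed in the main fit only (3.03%). The member and junction gene counts under other settings therefore cannot be compared with all genes. All genes with an adjusted p below 0.05 numbered 6, against 2 by edgeR, 1 by limma-voom, 3 without the filter, 11 with the replicate block, 78 in the deeper libraries and 1 to 108 with a library left out, the highest without floxed library 3. The log2 fold change of Cldn23 was 0.00 by limma-voom and 0.26 in the deeper libraries, where that of Cldn2 was -0.93. Cldn2 was at -0.22 by limma-voom, -0.18 with the smooth muscle covariate and -0.13 with the replicate block. With a library left out, estimates that turned sign ranged from -0.63 to 0.44 for Cldn2 (0.44 without floxed library 4), -0.01 to 0.18 for Cldn3 and -0.02 to 0.19 for Tjp1 (both below 0 without floxed library 2), -0.10 to 0.03 for Cldn15 and -0.23 to 0.06 for Cldn23. The cause was not tested. The replicate numbers are those of the sample titles, which name no pairing of mice across genotypes. Correlations of same-numbered libraries' deviations were 0.542, 0.294, 0.0113 and -0.423, and floxed libraries 3 and 4 correlated best with other numbers. These values cannot tell whether mice were paired by litter or cage, and the block is given here only. Depth limits Cldn8 and, in the 3 shallow libraries, Cldn2 (61 to 126 raw counts).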
